A study of Mus musculus with 9 samples.

Results

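The ErbB receptors and the growth factors that bind them were followed through 9 mammary tumours. The family was taken as 8 genes fixed by name, the receptors Egfr, Erbb2 and Erbb3 and the ligands Areg, Ereg, Hbegf, Tgfa and Nrg1, and 6 of the 8 were found among the 14108 genes listed in the count data. Erbb3 and Ereg were not among the listed genes and were not analysed here. All 6 listed members passed the filter on low counts, as did 14086 of the 14108 genes. Of the 7 remaining receptor and ligand genes of the family, Btc and Epgn were listed, and these 2 are described beside the members.

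The 9 tumours came from 3 mouse mammary cancer models with 3 tumours each. HR1 is a cell line that does not metastasise, established from a mammary tumour of a transgenic mouse that expressed mutant PIK3CA, an activated catalytic subunit of phosphoinositide 3-kinase (PI3K), from the ubiquitous CAG promoter. LM1 and LM9 are lines established from metastases that formed in the lung after HR1 cells had received a mobile piggyBac transposon, so all 3 models share the PIK3CA transgene. For each, 250000 cells in Matrigel and PBS were placed in a mammary fat pad of female NOD/SCID mice aged 4 to 8 weeks, tumours were taken before 1500 mm3, and RNA came from sorted GFP+ cells. These hosts lack functional lymphocytes but keep myeloid cells, fibroblasts and vessels. Each model is a single line, and the labels do not say that each tumour grew in its own mouse, so the p-values below measure only the spread between these tumours. The series was made to study the transcription factor NFIB in metastatic colonisation, and the comparisons here ask how the ErbB system differed between the metastatic models and HR1, and between LM9 and LM1.

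The ErbB family consists of receptor tyrosine kinases that work as pairs. Egfr binds amphiregulin (Areg), heparin-binding EGF-like growth factor (Hbegf), transforming growth factor alpha (Tgfa), betacellulin (Btc) and epigen (Epgn). Erbb2 binds no ligand of its own and acts as the preferred partner of the other receptors, while neuregulin (Nrg1) binds Erbb3 and Erbb4. The ligands are made as membrane-anchored precursors, most of which are released by metalloproteases such as Adam17 and Adam10. In the mammary gland Areg is the main Egfr ligand of ductal outgrowth.

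Total counts ran from 32393958 to 46681945 per tumour, and 3 counts corresponded to 0.063 to 0.0997 CPM (read counts scaled to a library of 1000000 counts with the TMM normalisation factors of edgeR). HR1 replicate 1 stood apart from the other HR1 tumours. It held 1343 CPM of Nfib, against 23.9 and 18.3 CPM in HR1 replicates 2 and 3 and 421 to 791 CPM in the LM tumours. The correlation of log2(CPM + 0.5) between tumours of one model was 0.894 to 0.969 in HR1, 0.990 to 0.995 in LM1 and 0.994 to 0.995 in LM9. Its Nfib level thus went against the rest of its model, and whether its label is right could not be settled from these data, so every HR1 mean and every difference from HR1 below carries this doubt. The tests of the members and the counts of the gene lists against HR1 are therefore also given without HR1 replicate 1. Epithelial markers were uneven. Epcam reached at most 4.49 CPM, Cdh1 at most 1.20 CPM and Krt18 at most 2.48 CPM in any tumour, and Krt8 and Elf5 were not among the listed genes. Other markers of mammary epithelium were present but varied within HR1. Esr1 was at 68.6, 7.72 and 7.46 CPM in HR1 replicates 1 to 3 and at means of 32.2 and 44.7 CPM in LM1 and LM9, and Gata3 at 33.4, 17.2 and 15.9 CPM and at means of 20.5 and 11.8 CPM. Krt14 was at 1.56, 31.4 and 109 CPM in HR1 and at means of 167 and 13.9 CPM in LM1 and LM9, and Acta2 at 95.7, 606 and 327 CPM and at means of 67.4 and 1.09 CPM. Col1a1, a fibroblast marker, was at 6359 CPM or more in every tumour. With bulk RNA, fewer cells of a type and less RNA per cell cannot be told apart.

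The DNA before the start of 4 of these genes is shown first, because Areg, Btc, Tgfa and Egfr all rose in both metastatic models. The 250 bases upstream of each RefSeq gene start (GRCm38.p6) are written 5′ to 3′ on the strand of the gene, in lower case. Each window was searched on both strands for a cAMP response element (CRE, TGACGTCA), an AP-1 site (TGANTCA), a nuclear factor I (NFI) palindrome (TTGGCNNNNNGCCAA), an NFI half-site (TTGGC) and a hypoxia response element core (ACGTG). Capitals mark the matches. The half-site also forms each end of the palindrome.
Areg, chr5:91139349-91139598, plus strand: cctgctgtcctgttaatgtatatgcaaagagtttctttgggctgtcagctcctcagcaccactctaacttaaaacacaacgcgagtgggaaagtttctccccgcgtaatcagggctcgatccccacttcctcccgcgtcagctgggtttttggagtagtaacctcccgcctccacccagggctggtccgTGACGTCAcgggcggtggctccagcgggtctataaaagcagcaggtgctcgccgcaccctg
Btc, chr5:91402995-91403244, minus strand: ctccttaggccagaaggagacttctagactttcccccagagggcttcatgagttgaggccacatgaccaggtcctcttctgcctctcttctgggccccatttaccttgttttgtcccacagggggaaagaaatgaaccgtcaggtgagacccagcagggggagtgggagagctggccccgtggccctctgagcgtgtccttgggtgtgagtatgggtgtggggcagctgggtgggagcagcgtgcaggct
Tgfa, chr6:86194972-86195221, plus strand: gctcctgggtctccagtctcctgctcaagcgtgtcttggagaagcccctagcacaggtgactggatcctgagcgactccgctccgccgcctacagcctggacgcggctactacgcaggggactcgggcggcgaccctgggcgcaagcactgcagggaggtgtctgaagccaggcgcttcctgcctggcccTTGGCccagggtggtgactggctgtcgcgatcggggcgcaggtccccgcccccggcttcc
Egfr, chr11:16751953-16752202, plus strand: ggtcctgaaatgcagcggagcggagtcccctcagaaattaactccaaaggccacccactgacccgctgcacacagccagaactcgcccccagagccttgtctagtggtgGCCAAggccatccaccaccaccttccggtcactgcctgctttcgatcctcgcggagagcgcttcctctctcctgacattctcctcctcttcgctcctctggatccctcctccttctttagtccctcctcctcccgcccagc
The Areg window held an uninterrupted CRE that began 61 bases before the gene start. This 8-base motif was present in 1.55% of 32851 upstream windows of the same length. Tgfa held an NFI half-site 60 bases before its start, and Egfr held its reverse complement 141 bases before its start, a motif present in 41.51% of windows. The Btc window held none of the 5 motifs. No AP-1 site, which 6.75% of windows held, NFI palindrome (0.04%) or hypoxia core (16.57%) lay in these 4 windows, which says only that these letters were not there. A match is a description of the letters and not evidence of binding.

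Egfr and 3 of its ligands, Areg, Hbegf and Tgfa, were higher in LM1 and LM9 combined. In LM1 and LM9 together against HR1, 4 of the 6 members rose and 0 fell at an adjusted p under 0.05 in edgeR's quasi-likelihood test, where 19.9% of all tested genes were called higher and 23.6% lower. The members that rose were Egfr, Areg, Hbegf and Tgfa, and in each of them all 6 LM tumours lay above all 3 HR1 tumours, a separation seen for 15.6% of all tested genes. Tgfa had 0 to 2 counts in each HR1 tumour and passed the count filter only through the LM tumours, so it could be called in no direction but higher. Its separation, counted above, was likewise possible in that direction only. Without Tgfa, 3 of 5 members rose and 0 fell, with a median log2 fold change of 1.68, against -0.05 over all genes. The exact two-sided permutation test of mean CPM gave 0.0238 for each of the 4 that rose, the smallest p that 6 against 3 tumours allow. Full separation fixes this p, so it adds nothing to it. The same test gave 0.0476 for Nrg1 and 0.0714 for Erbb2, and with 3 against 3 tumours it cannot go below 0.1. The count depended on the method and on single HR1 tumours. With all tumours DESeq2 added Nrg1 to the members called higher (adjusted p = 0.012), and limma-voom added Nrg1 (0.032) and Erbb2 (0.044). In edgeR, Nrg1 was added without HR1 replicate 3. Without HR1 replicate 1 all 6 rose (5 of 5 without Tgfa), where 27.5% of all genes were called higher and 28.5% lower.

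**Figure D1:**
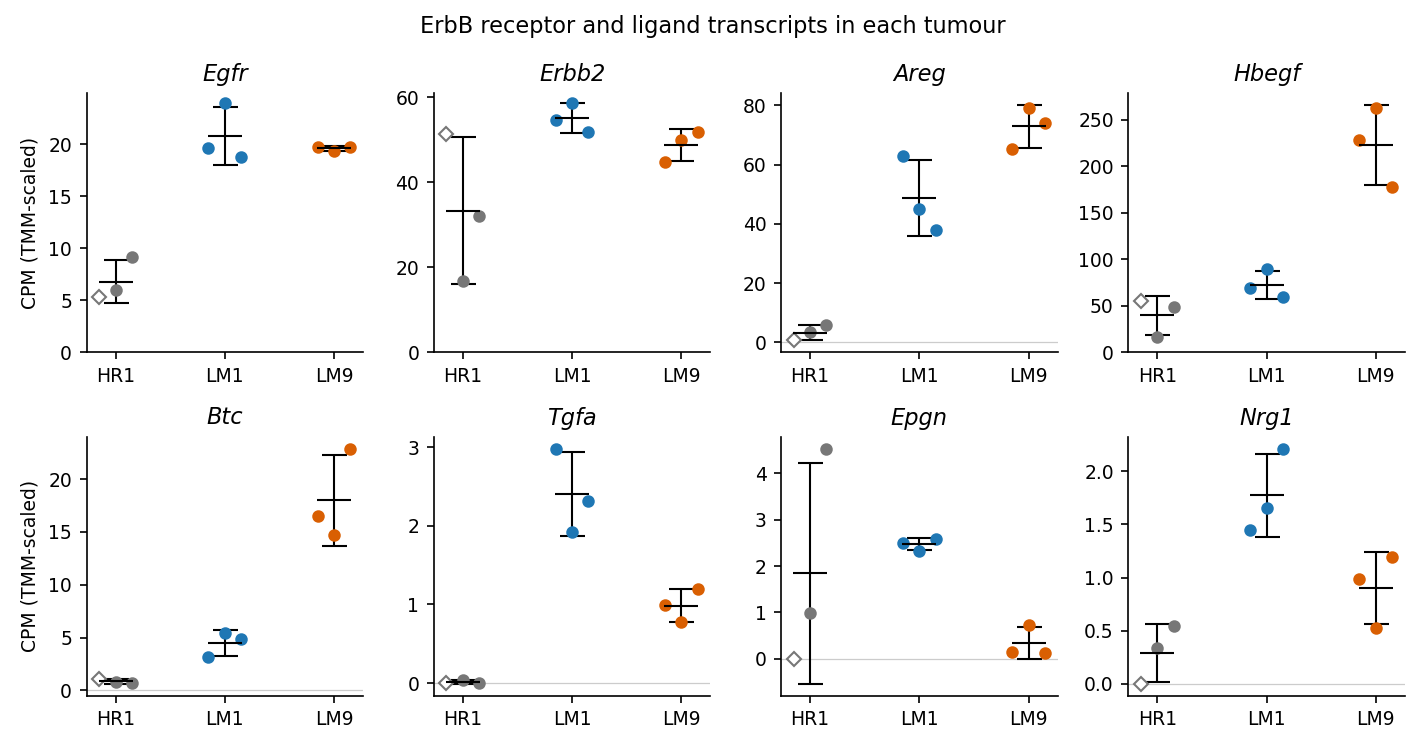
Each panel plots 1 gene, with TMM-scaled CPM on the vertical axis and the 3 models on the horizontal axis. Points are tumours (open diamond, HR1 replicate 1), the wide dash is the mean and the bars are 1 SD (n = 3). Areg lies at 5.94 CPM or below in HR1 and at 38.0 CPM or above in the LM tumours, and Hbegf and Btc are highest in LM9 while Tgfa, Nrg1 and Epgn have their highest means in LM1.

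Among the receptors, Egfr (chromosome 11, 16752203 to 16918158, plus strand, GRCm38) was measured at 5.29, 5.97 and 9.13 CPM in HR1 replicates 1 to 3. It was at 19.7, 23.9 and 18.7 CPM in LM1 and at 19.8, 19.3 and 19.7 CPM in LM9. The 6 LM tumours were all above the 3 HR1 tumours, and the LM1 and LM9 ranges overlapped. The log2 fold change was 1.61 in LM1 (adjusted p = 0.0012) and 1.53 in LM9 (adjusted p = 0.0013), and 1.57 ± 0.21 (SE) for both together (adjusted p = 6e-04). With HR1 replicate 1 left out it was 1.47 in LM1 (adjusted p = 0.00031) and 1.38 in LM9 (adjusted p = 0.00042). LM9 and LM1 differed by -0.08 ± 0.22 on the log2 scale (adjusted p = 0.81).

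Erbb2 (chromosome 11, 98412470 to 98437716, plus strand) was the more abundant receptor per length. It was at 51.3, 16.7 and 31.9 CPM in HR1, at 54.7, 58.7 and 51.7 CPM in LM1, and at 44.7, 49.8 and 51.8 CPM in LM9. HR1 replicate 1 lay within the LM range, and HR1 replicates 2 and 3 lay below it. With all tumours the difference of 0.64 ± 0.29 on the log2 scale did not pass the test (adjusted p = 0.11). The call depended on HR1 replicate 1 and on the method, as the difference was 1.10 ± 0.22 without that tumour (adjusted p = 0.002) and 0.82 with all tumours in limma-voom (adjusted p = 0.044). The exons of Erbb2 share 9 bases with Mien1 on the opposite strand.

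Levels of the receptors can be compared only per kilobase of exon. On that scale Erbb2 made up 89.9% ± 4.98 of the sum of Egfr and Erbb2 in HR1, 85.2% ± 0.894 in LM1 and 84.3% ± 1.10 in LM9 (SD, n = 3). Egfr was at 0.600 ± 0.181, 1.83 ± 0.244 and 1.73 ± 0.0221 CPM per kb, and Erbb2 at 6.40 ± 3.33, 10.6 ± 0.674 and 9.36 ± 0.707 CPM per kb, in the order HR1, LM1 and LM9. Erbb2 thus led Egfr in each model on this scale.

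Areg (chromosome 5, 91139599 to 91148432, plus strand) had the widest gap of the abundant ligands. It was at 0.665, 3.38 and 5.94 CPM in HR1, at 62.9, 45.2 and 38.0 CPM in LM1, and at 65.2, 79.3 and 74.2 CPM in LM9. No LM tumour came near the HR1 range, and every LM9 tumour lay above every LM1 tumour. The log2 fold change was 3.86 in LM1 (adjusted p = 0.0022) and 4.44 in LM9 (adjusted p = 0.0011), and without HR1 replicate 1, which had the lowest value, they were 3.40 and 3.97 (adjusted p = 2.2e-05 and 9.1e-06). The difference of 0.58 between LM9 and LM1 did not pass the test (adjusted p = 0.47).

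Hbegf, whose membrane-bound precursor is the diphtheria toxin receptor in primates, lies on chromosome 18 from 36504927 to 36515805 on the minus strand. It was at 55.0, 16.01 and 48.1 CPM in HR1, at 68.7, 89.3 and 59.5 CPM in LM1, and at 228.6, 262.9 and 177.9 CPM in LM9. The 3 models formed separate ranges in the order HR1, LM1, LM9, with a narrow step from HR1 to LM1. Against HR1 the log2 fold change was 2.49 ± 0.42 in LM9 (adjusted p = 0.0023) and 0.87 ± 0.40 in LM1, which missed the threshold (adjusted p = 0.12). The differences were 2.80 in LM9 (adjusted p = 0.00094) and 1.19 in LM1 (adjusted p = 0.039) without HR1 replicate 1.

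Hbegf was also the 1 member that differed between the metastatic models, with a log2 fold change of 1.62 ± 0.41 in LM9 against LM1 (adjusted p = 0.024). The direction stayed with each tumour left out in turn, between 1.45 and 1.81, but the call did not. The adjusted p was 0.09 and 0.096 without LM1 replicates 1 and 3, and 0.076, 0.082 and 0.0501 without LM9 replicates 1, 2 and 3.

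Tgfa (chromosome 6, 86195223 to 86275719, plus strand) was almost absent from HR1. Its counts in HR1 replicates 1 to 3 were 0, 2 and 0, against CPM of 2.98, 1.93 and 2.31 in LM1 and of 0.987, 0.778 and 1.19 in LM9. The 3 ranges did not touch, and LM1 lay above LM9. From the summed counts, 318 in LM1 and 133 in LM9 against 2 in HR1, the ratio to HR1 was 137 in LM1 (95% exact interval 37.7 to 1140) and 56.0 in LM9 (15.2 to 467), intervals that cover counting error only. The test called Tgfa higher in LM1 (adjusted p = 0.00044) and in LM9 (adjusted p = 0.00089), and did so without HR1 replicate 1 (adjusted p = 7.1e-05 and 0.00027). LM9 against LM1 gave -1.28 ± 0.53 on the log2 scale (adjusted p = 0.11), and -1.29 (adjusted p = 0.023) without HR1 replicate 1. Its exons share 118 bases with Gm43917 on the opposite strand, and whether the counting used strand is not given in the sources used here.

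Nrg1 (chromosome 8, 31814551 to 32884029, minus strand), a ligand of Erbb3 and Erbb4, was the other scarce ligand. Counts in HR1 were 0, 15 and 21, or 0, 0.338 and 0.540 CPM, against 1.45, 1.65 and 2.21 CPM in LM1 and 0.987, 0.526 and 1.19 CPM in LM9. LM1 lay above both other models in every tumour, while the lowest LM9 tumour lay just under the highest HR1 tumour. The log2 fold change was 2.55 ± 0.87 in LM1 (adjusted p = 0.049) and 1.58 in LM9 (adjusted p = 0.16). The LM1 call was lost without HR1 replicate 2 (adjusted p = 0.084), without any 1 LM1 tumour (0.095, 0.11 and 0.12) and without any 1 LM9 tumour (0.069 to 0.078). It was kept without HR1 replicate 3 (adjusted p = 0.031) and without HR1 replicate 1, where the log2 fold change was 2.02 in LM1 (adjusted p = 0.0066) and 1.04 in LM9 (adjusted p = 0.09). The exons share 482 bases with Gm26578 on the opposite strand.

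Of the ligands outside the 8 names, Btc rose and Epgn did not pass the test. Btc (chromosome 5, 91357261 to 91402994, minus strand), which binds Egfr and Erbb4, was at 1.13, 0.788 and 0.669 CPM in HR1, at 3.13, 5.48 and 4.83 CPM in LM1, and at 16.5, 14.7 and 22.9 CPM in LM9. The 3 models did not overlap. The log2 fold change against HR1 was 2.38 in LM1 (adjusted p = 0.0011) and 4.39 in LM9 (adjusted p = 8.4e-05), or 2.62 and 4.62 without HR1 replicate 1 (adjusted p = 0.00016 and 6.9e-06), and LM9 exceeded LM1 by 2.01 ± 0.31 (adjusted p = 0.0041), a call kept with every 1 tumour left out (adjusted p at most 0.025). Epgn (chromosome 5, 91027464 to 91035215, plus strand) was at 0, 0.991 and 4.53 CPM in HR1, at 2.50, 2.33 and 2.59 CPM in LM1, and at 0.150, 0.732 and 0.135 CPM in LM9. The HR1 tumours spanned both LM models, and no comparison passed the test with all tumours, while without HR1 replicate 1 Epgn was lower in LM9 than in HR1 (-3.02, adjusted p = 0.0084) and than in LM1 (-2.87, adjusted p = 0.01).

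**Figure D2:**
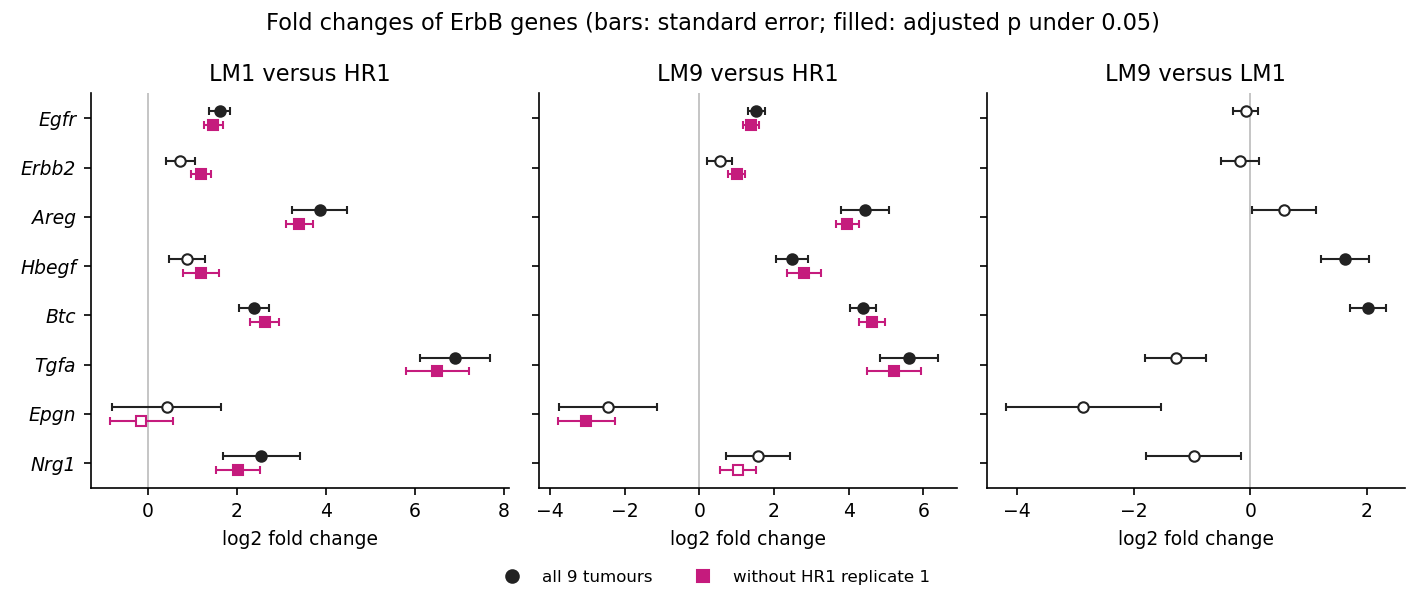
The horizontal axis of each panel is the log2 fold change of the comparison named above it, and the rows are genes. Points are estimates with their standard errors, black circles for all 9 tumours and magenta squares without HR1 replicate 1 (not drawn for LM9 versus LM1), filled where the adjusted p is under 0.05. Egfr, Areg, Btc and Tgfa are filled in both HR1 panels, and Hbegf and Btc are the filled points of the right panel.

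Model by model, 4 of the 6 members rose in LM1 (Egfr, Areg, Tgfa and Nrg1), where 16.7% of all tested genes were called higher and 18.7% lower. In LM9, 4 rose (Egfr, Areg, Hbegf and Tgfa), where 20.4% of all genes were called higher and 21.9% lower. No member fell in either. Tgfa, which could only be called higher, is in both counts, and without it 3 of 5 rose in each model. Nrg1, in the LM1 count, had 0, 15 and 21 counts in HR1, so it too needed LM tumours to pass the count filter. That leaves Egfr and Areg in LM1. Without HR1 replicate 1, 6 of 6 rose in LM1 (background 26.9% higher and 26.0% lower) and 5 of 6 in LM9, all but Nrg1 (27.9% and 27.8%). With Tgfa also set aside, 5 of 5 rose in LM1 and 4 of 5 in LM9. Both comparisons use the same HR1 tumours.

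Between LM9 and LM1, 1 of the 6 members was higher and 0 lower, where 11.5% of all genes were called higher and 10.6% lower. Without HR1 replicate 1, which belongs to neither model but enters the filter, the scaling and the shared estimate of the spread, 1 was higher (Hbegf) and 1 lower (Tgfa), with a background of 22.9% higher and 22.5% lower. All 3 LM9 tumours lay above all 3 LM1 tumours for Areg and Hbegf, as for 31.9% of all genes, and below them for Tgfa and Nrg1, as for 31.1%, so these counts are near the background.

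Per length, the summed transcripts of the 6 listed ligands (Areg, Hbegf, Tgfa, Nrg1, Btc and Epgn) were 12.2, 6.85 and 17.6 CPM per kb in HR1. They were 68.7, 58.6 and 46.7 CPM per kb in LM1, and 104.9, 123.5 and 103.3 CPM per kb in LM9. The 3 models formed 3 separate ranges. Hbegf was the leading ligand per length in all 3 HR1 tumours, with 93.5%, 48.3% and 56.7% of the sum. Areg led in all 3 LM1 tumours, with 75.4%, 63.4% and 67.0%, and in all 3 LM9 tumours, with 51.1%, 52.9% and 59.1%. Hbegf held 26.2% ± 5.41 in LM1 and 41.6% ± 5.19 in LM9 (SD, n = 3). Btc, Epgn, Tgfa and Nrg1 each held under 5% in every LM tumour. The order rests on the division by exon length, because Hbegf had the most CPM of the ligands in all 9 tumours without it.

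**Figure D3:**
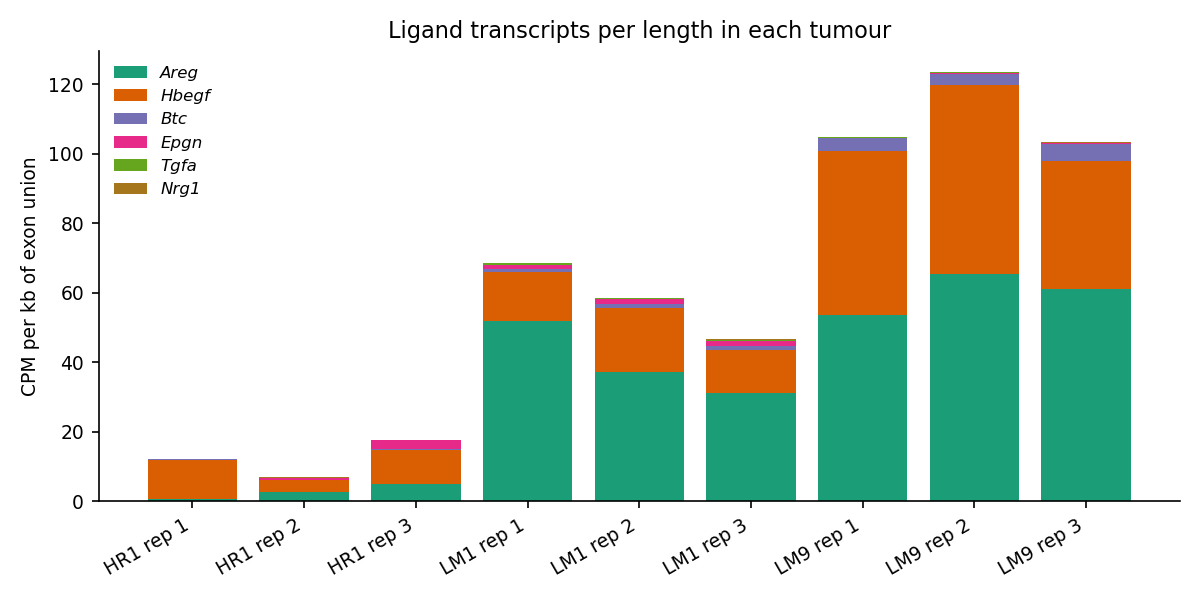
Stacked bars give the level of each ligand in CPM per kb of exon union, 1 bar for each tumour. The total rises from 6.85 to 17.6 in HR1 through 46.7 to 68.7 in LM1 to 103.3 to 123.5 in LM9, with Hbegf the largest segment in HR1 and Areg the largest in LM1 and LM9.

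Areg, Btc and Epgn lie within one stretch of chromosome 5, with 263396 bases from the start of Areg to the end of Btc. The genes around them were examined after the values of the ligands had been seen. Of 22 tested genes within 1000000 bases of Areg, with Areg, Btc and Epgn among them, 8 were called higher and 3 lower, against 19.9% and 23.6% of all genes. Without HR1 replicate 1 the counts were 9 and 4 (27.5% and 28.5%). Areg and Btc, known to be higher when the window was drawn, are in both counts of higher genes, which are therefore partly built in. The others called higher with all tumours were Ankrd17, Cxcl5, Cxcl1, Cxcl2, Gm19619 and Parm1. The CXC chemokine genes named next were picked after their values were seen. Cxcl1, which attracts neutrophils, rose by 4.29 on the log2 scale (adjusted p = 0.00011), from a mean of 10.7 CPM in HR1 to 130.2 in LM1 and 332.6 in LM9. Cxcl2 and Cxcl5 had log2 fold changes of 2.63 and 2.46 (adjusted p = 0.0034 and 0.024), and Parm1, on the far side of Btc, of 2.64 (adjusted p = 0.009). The stretch did not move as one. Ppbp, Pf4 and Cxcl15, which lie between Cxcl5 and Cxcl1, were lower, while Cxcl3 among them was at -0.20 (adjusted p = 0.80). Ppbp and Pf4 had log2 fold changes of -1.42 and -1.60 (adjusted p = 0.028 and 0.021). Cxcl15 was at 76.2, 3.85 and 12.2 CPM in HR1 replicates 1 to 3, so its HR1 mean rests largely on replicate 1, and at means of 1.01 CPM in LM1 and 0 in LM9 (adjusted p = 0.0016, and 0.00011 without that tumour). Mthfd2l next to Epgn was at -0.41 (adjusted p = 0.14). When HR1 replicate 1 was left out, Cxcl1 was at 4.53, Cxcl2 at 2.94, Cxcl5 at 2.15, Ppbp at -1.50 and Pf4 at -1.16, all still called, Parm1 was at 4.07 (adjusted p = 2.3e-07) and Mthfd2l was called lower at -0.58 (adjusted p = 0.027).

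**Figure D4:**
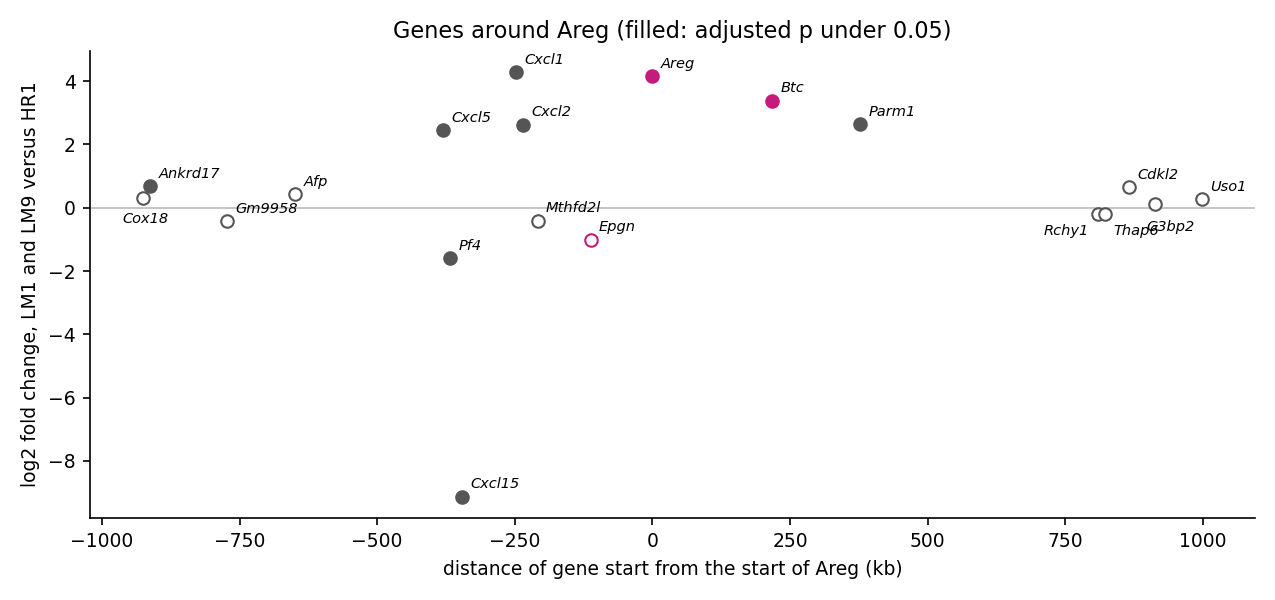
The horizontal axis is the distance of each gene start from that of Areg in kb, and the vertical axis the log2 fold change against HR1 for both LM models together. Drawn are those whose mean over the 3 models reached 1 CPM, ligands of the family in magenta, and filled points have an adjusted p under 0.05. Cxcl1 at 4.29, Areg at 4.15 and Btc at 3.38 are the highest points, and Pf4 and Cxcl15 lie below 0.

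The ligands are released by sheddases. Of 10 sheddases and their carriers, 1 was higher and 2 lower in LM1 and LM9 together, with a median log2 fold change of -0.17, against 19.9% higher and 23.6% lower over all genes. Adam17, the main sheddase of Areg, Hbegf and Tgfa, was at -0.06 (adjusted p = 0.71), Adam10, which releases Btc, was at 0.25 (0.14), and the inactive rhomboids Rhbdf1 and Rhbdf2, which carry Adam17 to the cell surface, were at -0.47 (0.072) and 1.03 (0.10). Adam12 rose by 1.88 (adjusted p = 0.00037), and in LM9 against LM1 was at -1.40 (0.0051). Leaving out HR1 replicate 1 gave 2 higher and 3 lower (27.5% and 28.5% over all genes), with Adam12 at 2.05 (5.8e-05), Rhbdf2 called higher at 0.58 (0.022) and Rhbdf1 at -0.16 (0.29). In LM1 alone, 1 was higher and 1 lower with all tumours (16.7% and 18.7% of all genes), and 3 and 3 without that tumour (26.9% and 26.0%), Adam17 then being called lower at -0.30 (0.043). In LM9 alone, 1 was higher and 3 lower with all tumours (20.4% and 21.9% of all genes), and again 1 and 3 without that tumour (27.9% and 27.8%). Rhbdf1 was called lower in LM9 in both fits, at -0.67 (0.038) and -0.37 (0.047).

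Of 14 listed adaptors that bind the activated receptors, 3 were higher and 2 lower (median -0.10). Eps8, an Egfr substrate that regulates actin, rose by 2.65 (adjusted p = 0.0011) and Grb2, the adaptor that recruits the Ras activator Sos, by 0.41 (0.021). Shc1 and Gab2, both docking proteins, had log2 fold changes of -0.81 (0.0026) and -1.01 (0.022). Gab1 was at -0.49 (0.26). Over all genes 19.9% were higher and 23.6% lower. The models were unlike for Shc1, at -1.17 (0.00155) in LM1 and -0.46 (0.060) in LM9, with LM9 above LM1 by 0.71 (0.021). Gab2 was at -1.51 (0.011) in LM1 and -0.50 (0.27) in LM9, and LM9 against LM1 gave 1.01 (0.069). By model, 2 adaptors were higher and 3 lower in LM1 (16.7% and 18.7% of all genes), and 4 higher and 0 lower in LM9 (20.4% and 21.9%), or 5 and 2 in LM9 without HR1 replicate 1 (27.9% and 27.8%), Shc1 then being called lower at -0.54 (0.020). Leaving out HR1 replicate 1 gave 4 higher and 6 lower (27.5% and 28.5% over all genes), with Eps8 at 2.26 (4.3e-06), Grb2 at 0.44 (0.0135), Shc1 at -0.89 (0.00061), Gab2 at -0.80 (0.039) and Gab1 turning to 0.21 (0.31), and in LM1 alone Gab1 was then called higher at 0.66 (0.016).

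In the PI3K arm, 5 of 14 genes were higher and 2 lower (median 0.40), against 19.9% and 23.6% of all genes, and 6 and 2 when HR1 replicate 1 was left out, against 27.5% and 28.5%. Irs2 rose by 2.30 (adjusted p = 0.0013), Pik3cb by 1.29 (0.00064) and Pik3ca by 0.92 (0.003). Reads of the human PIK3CA transgene cannot be told apart from mouse Pik3ca in these counts. Pik3cd was at 0.45 (0.39) and Pik3r1, a regulatory subunit, at 0.94 (0.14), the last becoming 1.96 (0.00026) without HR1 replicate 1. Without that tumour Irs2 was at 2.12 (0.00093), Pik3cb at 1.16 (0.00022) and Pik3ca at 0.91 (0.00245).

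Of 17 genes for receptor turnover and inhibition, 5 were higher and 3 lower (median 0.18), near the 19.9% and 23.6% of all genes. Errfi1, the feedback inhibitor that binds the Egfr kinase and is itself induced by EGF, rose by 1.57 ± 0.23 (adjusted p = 0.00094), in LM1 by 1.11 (0.0087) and in LM9 by 2.02 (6e-04), and was higher in LM9 than LM1 by 0.91 (0.031). Lrig1, which lowers the level of ErbB receptors, was at 0.26 (0.14), its relative Lrig3 at -0.77 (0.14), and the ubiquitin ligase Cbl, which tags Egfr for degradation, at 0.26 (0.61). When HR1 replicate 1 was left out, 5 were higher and 6 lower, against 27.5% and 28.5% of all genes. Errfi1 was then at 1.63 (0.00057), Lrig3 was called lower at -1.20 (3e-04) and Cbl turned to -0.12 (0.68). The models were unlike for Lrig3, at -0.02 (0.98) in LM1 and -1.53 (0.032) in LM9 with all tumours. Without HR1 replicate 1 Lrig3 was at -0.44 (0.093) in LM1 and -1.96 (4.8e-05) in LM9.

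Of 18 immediate and early response genes, which cells switch on soon after EGF, 12 rose and 0 fell in LM1 and LM9 together, against 19.9% and 23.6% of all genes, and the median log2 fold change was 1.25. Egr1, an immediate early transcription factor, rose by 2.10 ± 0.33 (adjusted p = 0.0014), the survival gene Ier3 by 2.13 ± 0.20 (0.00013) and Phlda1 by 1.33 ± 0.22 (0.0016). Fosl1 was at 1.37 (0.079) and Dusp6, a phosphatase that ends ERK signalling, at -0.44 (0.38). The rest of those not called were Spry4 at 0.30 (0.47), Etv4 at 0.37 (0.11), Etv5 at -0.01 (0.98) and Plaur at 0.41 (0.31). The count called higher was 9 in LM1 and 11 in LM9, where 16.7% and 20.4% of all genes were called higher. Jun, Klf6 and Atf3, among the 12, were at 0.26 (0.55), 0.23 (0.57) and 0.19 (0.73) in LM1 and were called in LM9. Without HR1 replicate 1 it was 16 of 18 in both models together, against 27.5% of all genes, and 12 in LM1 and 16 in LM9, against 26.9% and 27.9%, with Egr1 at 2.42 (0.00036), Ier3 at 2.15 (3.5e-05), Phlda1 at 1.47 (0.00052), Fosl1 at 0.87 (0.00061) and Dusp6 turning to 0.26 (0.44). Between LM9 and LM1, 4 were higher and 0 lower (11.5% and 10.6% of all genes), or 8 and 0 without HR1 replicate 1 (22.9% and 22.5%). The 4, named after their values were seen, were Atf3 (1.97), Jun (1.29), Klf6 (1.07) and Ier3 (0.83). Many of these genes also respond to other growth factors and to stress. The RNA came from cells sorted out of tumours, and the part of that handling in these levels was not tested.

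**Figure D5:**
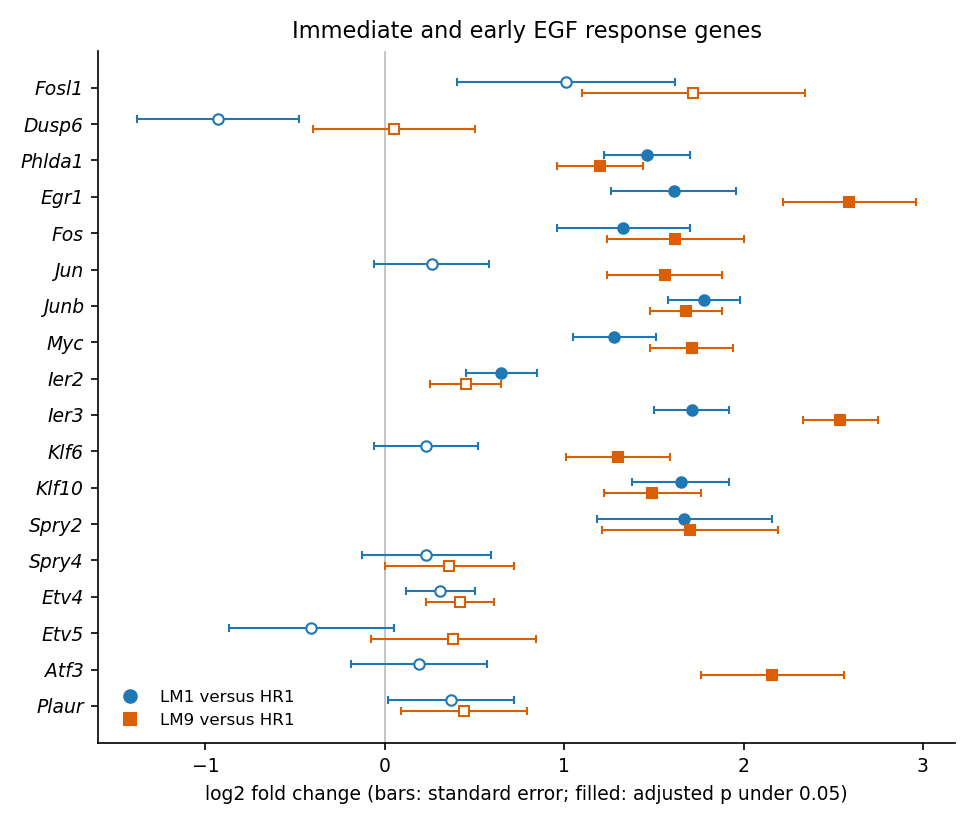
The horizontal axis is the log2 fold change against HR1 with its standard error, and the rows are the 18 immediate and early EGF response genes. Circles are LM1 and squares LM9, filled where the adjusted p is under 0.05. Of the 18 genes, 9 are filled to the right of 0 in LM1 and 11 in LM9, and none is filled to the left.

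Transcripts used as markers of other cells moved with the models, where 19.9% of all genes were called higher and 23.6% lower. Whether the sorted GFP+ tumour cells made these transcripts themselves was not tested. Of 12 leukocyte markers, 9 were lower in the LM tumours, with a summed level of 229 to 997 CPM in HR1, 186 to 208 CPM in LM1 and 199 to 237 CPM in LM9. Cd68, a macrophage marker, made up more than the other 11 together in every LM9 tumour (107 to 138 CPM, against 15.9 to 17.9 CPM in LM1) and was higher in LM9 than LM1 by 2.89 (adjusted p = 0.0073). Without it the sum was 188 to 876 CPM in HR1, 168 to 192 CPM in LM1 and 64.0 to 105 CPM in LM9. Fibroblast markers were lower in 9 of 10, with sums of 22597 to 35866 CPM in HR1 and 9152 to 14044 CPM in the LM tumours, and neither these nor the leukocyte markers were at 0 in any tumour. Of 7 listed endothelial markers, 4 were lower, among them Pecam1 (at most 6.42 CPM in any tumour), and 2 were higher, Cdh5 (1.88 to 13.4 CPM in HR1 and 136 to 254 CPM in the LM tumours) and Kdr. The summed level was 9.80 to 35.0 CPM in HR1 and 166 to 297 CPM in the LM tumours, a rise carried by Cdh5 and Kdr. Of 8 listed luminal markers 0 were higher and 2 lower (sums 29.8 to 111 CPM in HR1 and 61.7 to 80.6 CPM in the LM tumours), and of 9 basal markers 1 was higher and 3 lower (122 to 679 CPM in HR1, 237 to 271 CPM in LM1 and 48.9 to 50.997 CPM in LM9). Between LM9 and LM1, where Hbegf and Btc were called and 11.5% of all genes were higher and 10.6% lower, 1 basal marker was higher and 3 lower, among them Acta2 at -5.94 (adjusted p = 0.0011) and Krt14 at -3.59 (0.043). In the same comparison 1 leukocyte marker was higher and 2 lower, 0 and 2 fibroblast, 0 and 0 endothelial, and 0 and 1 luminal. With HR1 replicate 1 left out, where 27.5% of all genes were called higher and 28.5% lower, leukocyte markers were again lower in 9, fibroblast markers in 8 and endothelial markers in 4, luminal markers were 1 higher and 2 lower, and basal markers 2 higher and 3 lower. The part of these cells in the levels of Areg, Hbegf, Btc and Egfr, between models or against HR1, was not tested. HR1 replicate 1 had a leukocyte sum of 618 CPM, between those of the other HR1 tumours. It stood apart in fibroblast markers (35866 CPM, against 22597 and 23291 CPM), luminal markers (111 CPM, against 29.8 and 35.0 CPM) and basal markers (122 CPM, against 679 and 482 CPM).

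The genes whose pattern over the 9 tumours was most like that of each member were found by Pearson's r of log2(CPM + 0.5). The 9 points are 3 models of 3 tumours, so a shared step from HR1 to the LM models is enough for a high r. For Egfr they were Atad2 (r = 0.997) and Ticrr (0.994), for Erbb2 Zfp111 (0.979) and Ankrd49 (0.972), for Areg Cars (0.998) and Nmnat2 (0.996), for Hbegf Arhgef10l (0.989) and Zfp395 (0.988), and for Tgfa Fndc7 (0.988) and Hnrnpd (0.986). Nrg1 was below a mean of 1 CPM and was not matched. Among the family itself, Egfr and Areg had the highest r (0.966), followed by Hbegf with Btc (0.895) and Tgfa with Nrg1 (0.892), and Hbegf with Nrg1 had the lowest r of the pairs without Epgn (0.271). Epgn had a negative r with Btc (-0.413), Hbegf (-0.383) and Erbb2 (-0.103).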

How the data were processed

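RNA from sorted GFP+ tumour cells was made into stranded TruSeq mRNA libraries. The authors placed single-end reads on the mm10 genome using STAR, then used QuasR to count read starts over all exons of a gene, and the deposited counts are whole numbers per Entrez gene and tumour, not normalised. Tool versions and the strand setting are not given in the sources used here. Entrez identifiers were matched to symbols for 14085 of 14108 genes (23 had no match). Counts were filtered with filterByExpr, scaled by TMM and fitted as 3 groups of 3 tumours with edgeR 4.0.16 (R 4.3.3) by the robust quasi-likelihood F-test, with Benjamini-Hochberg adjustment over all 14086 tested genes and a threshold of 0.05. The standard error is the log2 fold change divided by the square root of F. Log2 fold changes are those of the fit, so genes with counts of 0 depend on its prior count. CPM used TMM-scaled library sizes, divided by GENCODE vM21 exon-union length (GRCm38) where genes are compared. This length may differ from the gene models behind the counts. Exact permutation tests used scipy 1.17.1. The steps were tested on simulated counts. Alternatives were RLE factors, no count filter, DESeq2 1.42.0, limma-voom (limma 3.58.1), the replicate number as a block, only the tumours compared, and each tumour left out. Replicate numbers were shared between models, but deviations of same-numbered tumours correlated from -0.114 to 0.296, so the numbers were not taken to pair them. No 2 tumours of a model agreed within sampling noise (chi-square per degree of freedom at least 32.3). In every listed gene the third highest count was 7 or more, so the listed genes appear to have been filtered before deposit. The members and gene lists were chosen with earlier results of these data known. Named genes were all members and other listed family genes, and of every other pathway list the first 4 listed genes plus the gene with the largest called change at a mean of at least 1 CPM. Upstream sequences are from RefSeq GRCm38.p6.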

Additional observations from a re-analysis of the deposited data

Results flagged for a closer look

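Among the 6 listed ErbB ligands, 2 differed between the metastatic models, where 11.5% of all tested genes were called higher in LM9 and 10.6% lower. For Hbegf the LM9 level exceeded that of LM1 by 1.62 on the log2 scale, in 3 of 3 LM9 tumours against 3 of 3 LM1 tumours. Btc was higher in LM9 by 2.01, also without overlap, a separation that 31.9% of all genes showed. Both differences were tested in the contrast of LM9 with LM1, which equals the difference of their effects against the shared HR1 tumours. The Btc call was kept under every alternative run. That of Hbegf was lost in 5 of 9 fits with 1 tumour left out.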

How the results depend on the processing

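Over 8 ErbB genes, 4 comparisons and all alternatives, 434 log2 fold changes kept their direction and side of the threshold, 19 passed only under the alternative, 15 lost the call and 4 turned sign. None of the calls for Egfr, Areg, Tgfa and Btc against HR1, or for Hbegf in LM9 or both models together against HR1, was lost under any alternative run. The number of members differing between LM9 and LM1 was 4 with only the tumours compared, where 7709 of all genes differed. It was 0 to 2 with 1 tumour left out, where 1150 to 6413 of all genes differed. It was 2 under DESeq2 and limma-voom and 0 with the replicate block. The numbers over all genes in these last fits are not given here, so those counts have no background beside them. The block also ended the call of Nrg1 in LM1 (adjusted p = 0.062 in edgeR) and of Hbegf in LM9 against LM1 (0.054), and changed no other call. Over all genes, 3008 differed between LM1 and HR1 and 7709 between LM9 and LM1 with only the tumours compared (4994 and 3102 with all tumours), and with 1 tumour left out 3121 to 7453 between LM1 and HR1, 3768 to 7862 between LM9 and HR1 and 1150 to 6413 between LM9 and LM1. Undivided by length, the share of Erbb2 in the receptor sum was 80.7%, 72.7% and 71.3% in HR1, LM1 and LM9, and that of Hbegf in the ligand sum 54.7% in LM1 and 70.2% in LM9. Epgn turned sign in LM1 and LM9 together against HR1 under limma-voom (0.70) and ranged from -1.63 to 0.83 with 1 tumour left out (-1.35 to 0.912 as a difference of mean CPM), and in LM1 against HR1 from -0.15 to 2.26 (-0.285 to 1.98 CPM). Egfr in LM9 against LM1 ranged from -0.15 to 0.04 (-2.18 to 0.405 CPM). The cause was not tested. At these depths Tgfa and Nrg1 in HR1 rest on 0 to 21 counts per tumour.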
